A study of Mus musculus
Rattus norvegicus and Rattus norvegicus and Mus musculus with 18 samples.

Results

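The nuclear-encoded respiratory chain genes are the genes named Nduf, Uqcr, Cox4 to Cox8 and Atp5, which code for subunits of complexes I, III, IV and V. They were picked by name from the deposited tables: 83 of 17672 mouse genes and 76 of 14876 rat genes. The mouse members were 39 genes of complex I, 8 of complex III, 17 of complex IV and 19 of complex V. The rat members were 33 genes of complex I, 9 of complex III, 18 of complex IV and 16 of complex V. Ndufa4 and Ndufa4l2 were counted with complex IV, where the Ndufa4 protein sits. Among the mouse members 9 were copies, of which 7 carry -ps in the name and the others, Cox6c2 and Ndufb4c, are annotated as processed pseudogenes.

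The members were measured in 4T1 tumors, 4T1 being a mouse mammary carcinoma line, which had grown for 27 days in the mammary fat pads of SRG rats. Mouse reads stand for tumor cells and rat reads for host cells. Lung (5 libraries), the necrotic core of the tumor (5) and its non-necrotic rim (5) were taken from untreated hosts, and cores and rims came from the same animals, Rat3867, Rat3869, Rat3875, Rat3876 and Rat3877. The lungs came from Rat3789 and from the last 4 of these animals. A pellet of cultured 4T1 cells (1 library) and mammary glands of rats without a transplant (2) are single-species controls. Every sample is labelled wildtype, and all tumors come from the 1 cell line. In such dissected bulk tissue, fewer cells of a type and less RNA per cell cannot be told apart.

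Respiratory complexes pass electrons from NADH to oxygen, and the proton gradient this builds drives the making of ATP. Complex I takes electrons from NADH, complex III hands them to cytochrome c, complex IV gives them to oxygen, and complex V is the ATP synthase. Most subunits are encoded in the nucleus and imported, while a small set is made from mitochondrial DNA, and several complex IV subunits exist as isoforms that differ between tissues.

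Libraries of lung, core and rim held between 15346400 and 26669410 reads of mouse genes and between 3146720 and 10015352 of rat genes. The library labelled lung of Rat3789 goes against its label: rat Sftpc, the surfactant protein made by alveolar cells, had 1.88 CPM in it, against 3126 to 5676 CPM in the other lungs, and it held 61.7 CPM of the adipocyte gene Adipoq. The counts of called members in lung and the differences of the genes named there are therefore given with and without that library. Stray mouse reads, judged from the pellet, would make up a median of 2.65% of the rat members' reads in core and 1.98% in rim. They pass 10% in 4 rat genes (Cox6a2, Cox8b, Atp5md and the second of the genes named Cox6b1), whose values are uncertain. In core and rim they would make up 119% and 73.5% of the reads of Cox6a2, and 69.9% and 85.2% of those of Cox8b. For the second Cox6b1 the shares are 51.8% and 40.2%, and for Atp5md 23.2% and 15.9%.

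In host cells the respiratory chain genes were higher in core than in rim. All 76 rat members passed the filter of at least 1 CPM in 5 libraries, and 58 were called higher and 2 lower (limma with the animal as a block, Benjamini-Hochberg adjusted p under 0.05 over 13559 genes). Among all rat genes tested, 17.5% were called higher and 20.1% lower. The members' median log2 difference, core minus rim, was 0.45, beside -5.8e-05 over all genes. In 60 members the core was above the rim in 5 of 5 animals, a count that was not made for all genes. In 40 members the 5 core values all lay above the 5 rim values, as they did in 11.8% of all genes. All cores lay below all rims in 1 member, as they did in 14.6% of all genes. By animal, the median difference was 0.43 in Rat3867, 0.72 in Rat3869, 0.47 in Rat3875, 0.27 in Rat3876 and 0.43 in Rat3877. Without Rat3876 and Rat3877 together, whose rims held the most adipocyte marker RNA (581 and 332 CPM, against 59.9 to 154 CPM in the other rims), the count called higher was 44, and leaving out single animals gave 42 (without Rat3875) to 59 (without Rat3876).

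**Figure D1:**
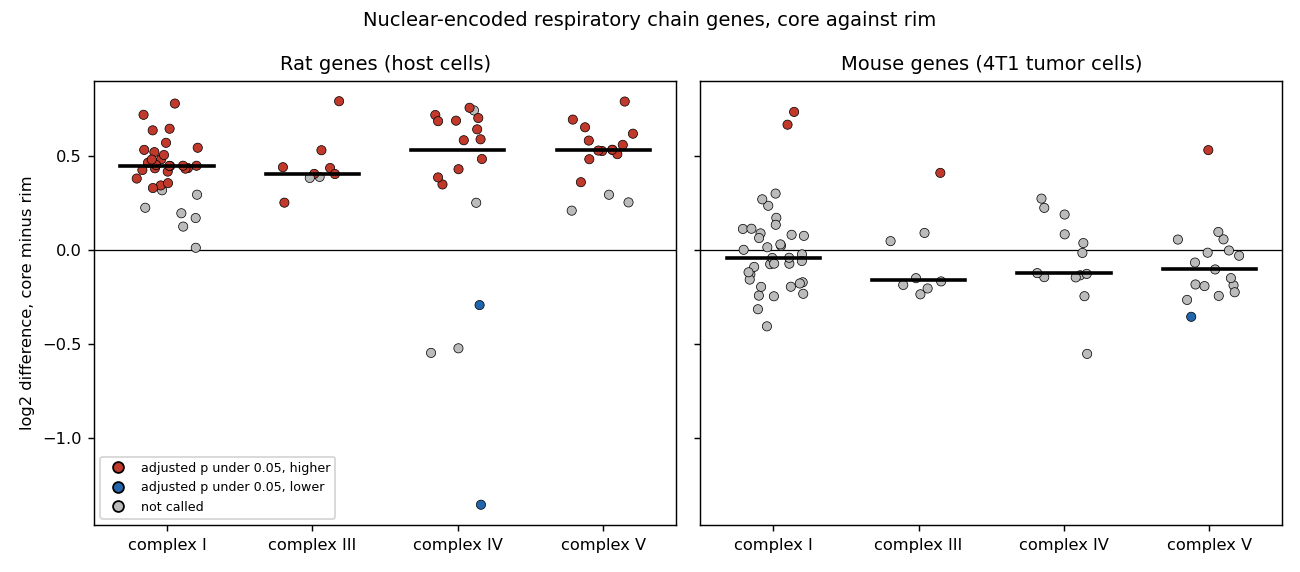
Log2 difference of each member, core minus rim, by respiratory complex, for rat genes on the left and mouse genes on the right; each point is 1 gene, colored by the limma call, and the bar is the median. Rat members lie mostly above 0, with medians of 0.41 to 0.54 per complex, while mouse medians lie between -0.16 and -0.04.

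Complex I had 26 of 33 rat members called higher and 0 called lower. Of its 7 core subunits, which carry the redox centers, 5 were called higher, with a median log2 difference of 0.45. Its 26 accessory subunits had 21 called higher, at a median of 0.44. Ndufa9, an accessory subunit, had 117, 136, 119, 117 and 123 CPM in the cores of Rat3867, Rat3869, Rat3875, Rat3876 and Rat3877, against 63.5, 78.7, 71.8, 64.9 and 78.4 CPM in the rims of the same animals. All cores lay above all rims, and the log2 difference was 0.78 ± 0.08 (SE, n = 5 animals; adjusted p = 0.00026, limma). Ndufb10, an accessory subunit of the membrane arm, averaged 67.2 ± 15 CPM in core and 40.1 ± 3.3 CPM in rim (SD, n = 5 each), with no overlap and a log2 difference of 0.72 ± 0.13 (SE; limma adjusted p = 0.0029). At the other end stood the accessory subunits Ndufb4 at 0.01 and Ndufs4 at 0.13, neither called.

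In complex III, 7 of 9 rat members were called higher. Uqcrfs1, the Rieske iron-sulfur protein, had 235, 289, 275, 227 and 243 CPM in the cores, in the order of animals used above, against 122, 184, 166, 127 and 139 CPM in the rims. The lowest core stood above the highest rim, with a log2 difference of 0.79 ± 0.08 (SE, n = 5 animals; limma adjusted p = 0.00023). Uqcrq, a small subunit, averaged 120.4 ± 34.2 CPM in core and 81.5 ± 10.3 CPM in rim (SD, n = 5 each), with overlapping groups and a log2 difference of 0.53 ± 0.13 (SE; limma adjusted p = 0.012). The table lists 2 rat genes under the name Uqcrb, with differences of 0.44 (called higher) and 0.38 (not called), and reads could be split between them.

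Complex IV had members called in both directions: 12 of 18 rat genes higher and 2 lower. Cox5a, a subunit found in all tissues, had 224, 236, 188, 201 and 206 CPM in the cores against 114, 143, 123, 110.1 and 134 CPM in the rims. Cox5b, which binds zinc, had 171, 254, 201, 156 and 175 CPM in the cores against 107, 139, 110.1, 108 and 111 CPM in the rims. In both genes the groups did not overlap, with log2 differences of 0.76 ± 0.09 for Cox5a and 0.72 ± 0.09 for Cox5b (SE, n = 5 animals each; limma adjusted p = 0.0004 and 0.00048). Cox4i1, the common form of subunit 4, had 520.3, 843, 627, 464 and 540.4 CPM in the cores against 319, 459, 366, 315 and 356 CPM in the rims. Every core was above every rim and the log2 difference was 0.70 ± 0.09 (limma adjusted p = 0.00052). Cox8a, the form of subunit 8 outside muscle, differed by 0.69 ± 0.10, Cox6b1 by 0.64 ± 0.09 and Cox6a1, the form of subunit 6a outside muscle, by 0.59 ± 0.12 (log2, SE), all called higher. The second gene named Cox6b1 was also called, at 0.59 (limma adjusted p = 0.045). That call was lost without any one of Rat3867, Rat3875, Rat3876 and Rat3877 (limma adjusted p 0.061 to 0.14). It was also lost under 5 of 9 other settings, among them the subtraction of stray reads. Cox7a2l, a factor that joins complexes III and IV, differed by 0.35 ± 0.12 with a limma adjusted p of 0.048. Its call was lost without any one of Rat3867, Rat3869, Rat3875 and Rat3877, at adjusted p of 0.06 to 0.12.

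Both called falls were in complex IV. Ndufa4 had 60.8, 61.3, 51.7, 70.6 and 51.8 CPM in the cores against 64.7, 69.8, 72.4, 89.1 and 66.5 CPM in the rims. It was lower in core in 5 of 5 animals though the groups overlapped, and it fell by 0.29 ± 0.09 on the log2 scale (SE; limma adjusted p = 0.04). Cox6b2, a testis form of subunit 6b, had 0.607, 1.73, 1.43, 2.01 and 1.89 CPM in the cores against 3.52, 3.66, 2.11, 6.37 and 3.6 CPM in the rims, with all cores below all rims. Its log2 difference was -1.35 ± 0.40 (SE; limma adjusted p = 0.028). The call of Ndufa4 was lost without any one of Rat3867, Rat3875, Rat3876 and Rat3877 (adjusted p 0.052 to 0.13) and without the block (0.073), and that of Cox6b2 without Rat3867, Rat3876 or Rat3877 (0.054 to 0.087).

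The other isoforms known from particular tissues did not pass the test in host cells. Cox4i2, the lung form of subunit 4, had 3.52, 4.57, 3.66, 3.24 and 2.14 CPM in the cores against 7.35, 5.44, 5.68, 3.65 and 3.02 CPM in the rims. It was lower in core in 5 of 5 animals, with overlapping groups and an adjusted p of 0.17 (limma). Ndufa4l2, a hypoxia-regulated relative of Ndufa4, averaged 10.6 ± 7.02 CPM in core and 12.5 ± 3.05 CPM in rim (SD, n = 5 each; limma adjusted p = 0.26). The muscle forms were low, Cox6a2 at 0.378 to 11.9 CPM and Cox8b at 0.126 to 8.5 CPM in the cores. By the shares given above, stray mouse reads would make up most or all of their reads over the cores together. Both muscle forms were highest in the core of Rat3876, the library in which rat skeletal muscle markers (12 listed) summed to 4775 CPM, against 38.6 to 1291 CPM in the other cores and the rims.

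In complex V, 13 of 16 rat members were called higher. All 5 genes of the catalytic head were among them, with a median log2 difference of 0.56, as were the 3 genes of the c-ring, with a median of 0.62. Atp5f1b, the catalytic beta subunit, had 1646, 1736, 1819, 1531 and 1687 CPM in the cores against 918, 1137, 939, 869 and 1013 CPM in the rims. No rim reached the lowest core, and the difference was 0.79 ± 0.10 (log2, SE, n = 5 animals; limma adjusted p = 0.00059). Atp5f1e, the small epsilon subunit, averaged 153 ± 39.8 CPM in core and 92.6 ± 9.16 CPM in rim (SD, n = 5 each), again without overlap, a difference of 0.70 ± 0.13 (log2, SE; limma adjusted p = 0.0047). Peripheral stalk genes had 2 of 3 called higher and the small membrane subunits 2 of 4.

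**Figure D2:**
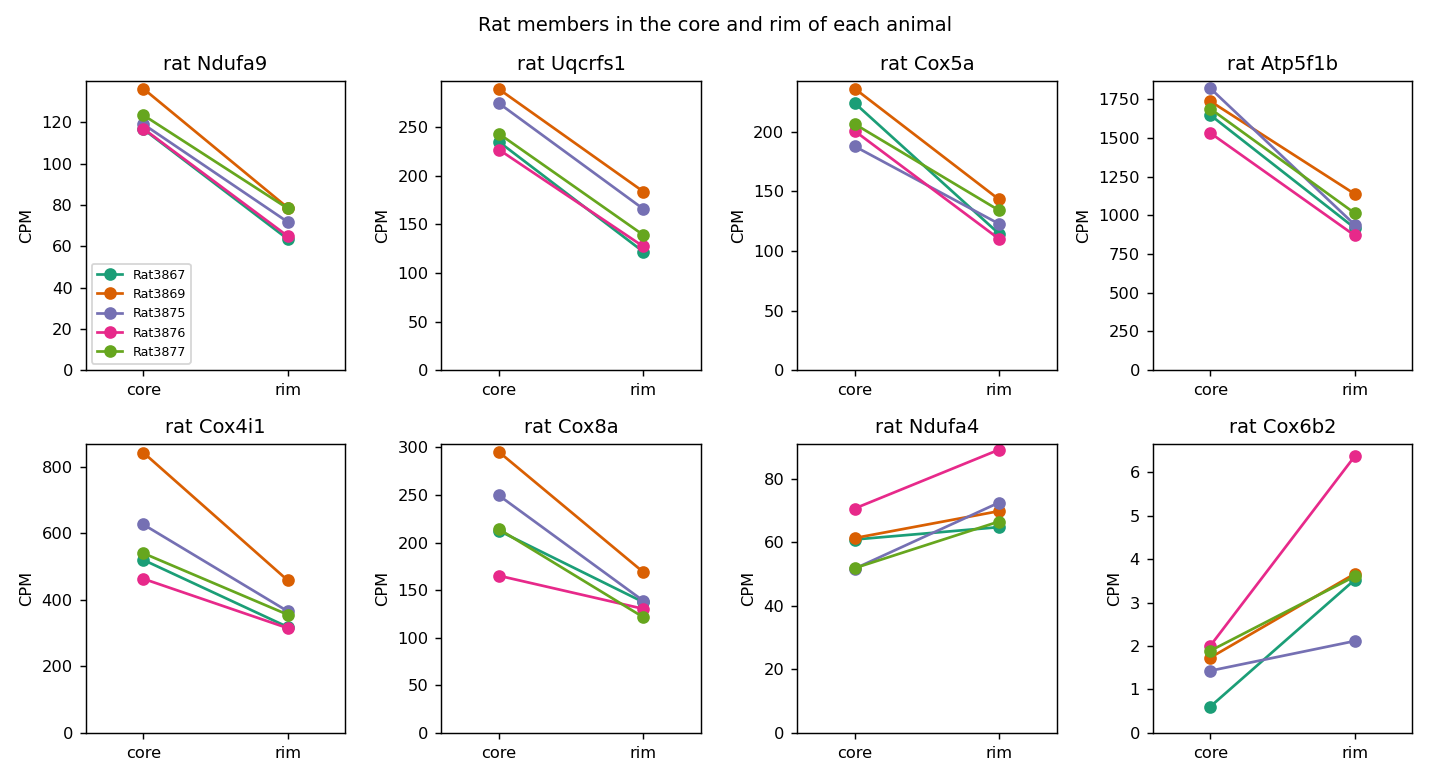
CPM of 8 rat members in the core (left) and rim (right) of each animal, 1 line per animal, on linear axes from 0. Ndufa9, Uqcrfs1, Cox5a, Atp5f1b and Cox4i1 have every core above every rim; Ndufa4 and Cox6b2 are lower in the core of every animal.

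Genes that work with the members were set beside them. All 4 rat genes of complex II, which feeds electrons in from succinate, were called higher in core, with a median log2 difference of 0.38. Of 11 electron carrier genes 1 was called, Cycs, which codes for cytochrome c, at 0.52. Of 40 assembly factors 5 were called higher and 1 lower; the copper chaperone Cox17 averaged 99.96 ± 23.6 CPM in core and 41.8 ± 6.61 CPM in rim (SD, n = 5 each), a log2 difference of 1.24. Among 15 regulators of mitochondrial biogenesis the nuclear receptor Esrra was called higher at 0.83 and the transcription factor Tfb2m lower at -0.60. Mitochondrial ribosomal protein genes had 27 of 71 called higher and 0 lower.

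Other genes moved in the same libraries. Of 75 rat genes of cytosolic ribosomal proteins, 57 were called higher in core and 1 lower. Of 16 hypoxia response genes tested, 10 were called higher, led by the oxygen sensor Egln3 at 2.07, and 1 lower. Fibroblast markers summed to 3408 to 11401 CPM in core and 32749 to 61023 CPM in rim, and all 7 tested, of 8 listed, were called lower. Neutrophil markers summed to 168 to 1187 CPM in core and 122 to 171 CPM in rim, with all 4 tested called higher, while Mpo, Elane and Ltf were not tested. Pericyte and smooth muscle markers summed to 548 to 1029 CPM in core and 1414 to 2163 CPM in rim, with 6 of 8 called lower and 0 higher. Endothelial markers summed to 304 to 857 CPM in core and 385 to 755 CPM in rim, with 3 of 6 tested called lower and 0 higher. Macrophage markers summed to 7609 to 9823 CPM in core and 7783 to 12112 CPM in rim, with 3 higher and 3 lower of 8. Alveolar markers had 2 of 10 tested called higher and 0 lower, epithelial markers 0 of 6 either way, brown adipocyte markers 1 of 2 lower and the 1 cardiac marker tested lower. Of the adipocyte markers 0 of 5 tested were called, and of the skeletal muscle markers 0 of 9. Their part in the higher members was not tested.

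Of the 13 mitochondrially encoded rat genes, Mt-co1 and Mt-co3, subunits of complex IV, were called higher, at log2 differences of 0.52 and 0.42. The other 11 were not called, and the median of the 13 was -0.02. As a share of rat reads, nuclear-encoded members took 1.08 ± 0.107% in core and 0.735 ± 0.0562% in rim. Mitochondrially encoded protein genes took 2.84 ± 0.303% of rat reads in core and 2.31 ± 0.207% in rim (SD, n = 5 each).

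**Figure D3:**
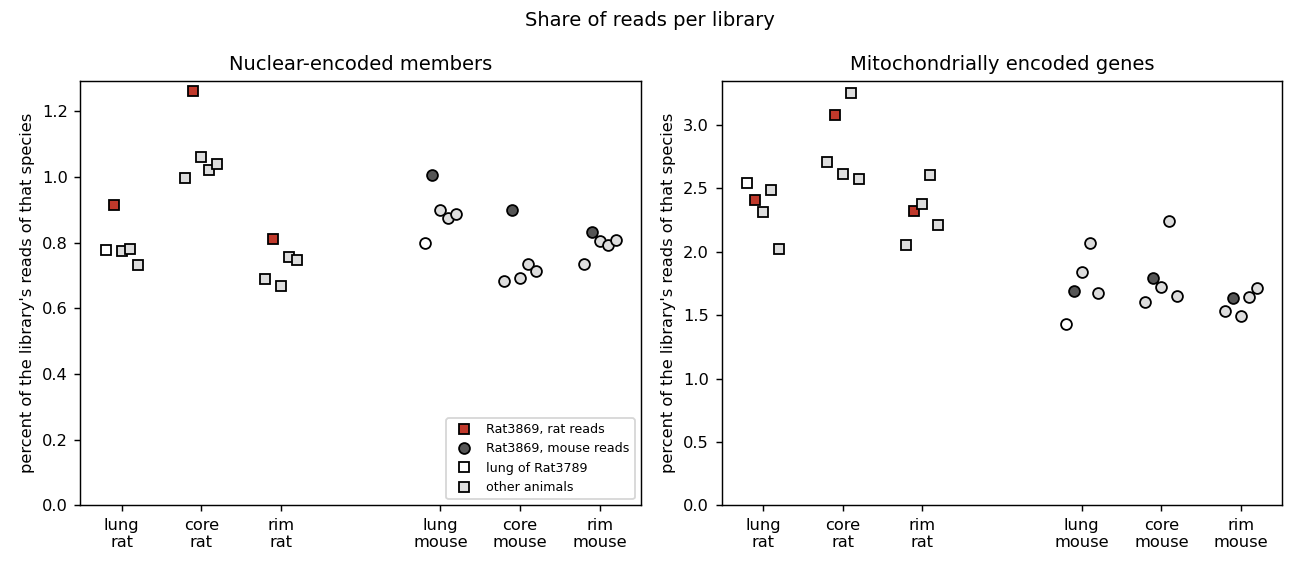
Percent of each library's reads of 1 species that fell on the nuclear-encoded members (left panel) and on mitochondrially encoded protein genes (right panel), in lung, core and rim; each symbol is 1 library. In the left panel every rat core lies above every rat rim, and Rat3869 is the highest library of its tissue for both species.

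In the tumor cells of the same pieces, few members differed between core and rim. Of 83 mouse members 75 passed the filter, and 4 of these were called higher in core and 1 lower (limma with the animal as a block, adjusted p under 0.05 over 13070 genes), where 10.1% of all mouse genes were called higher and 9.63% lower. The median log2 difference was -0.07, beside 0.01 over all genes. All cores lay above all rims in 3 members (7.08% of all genes) and below them in 1 (7.25%). In the same libraries 10 of 18 mouse hypoxia response genes were called higher. By animal the members' median was -0.08 in Rat3867, 0.23 in Rat3869, -0.17 in Rat3875, -0.13 in Rat3876 and -0.10 in Rat3877, so Rat3869 differed in sign from the others. Without Rat3869 the counts were 3 higher and 7 lower, and without Rat3867 they were 1 higher and 0 lower.

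The complex I genes called higher in tumor cells, Ndufa1 and Ndufb11, code for accessory subunits of the membrane arm and lie on the X chromosome. Ndufa1 (GRCm38 X:37187588-37191163, minus strand) had 25.7, 37.1, 22.5, 24.4 and 27.9 CPM in the cores against 14.8, 15.4, 18.2, 18.7 and 14.6 CPM in the rims. Ndufb11 (GRCm38 X:20615326-20617619, minus strand) had 84.9, 103, 71.4, 75.3 and 85 CPM in the cores against 51, 47.4, 56.4, 57.4 and 50.4 CPM in the rims. Neither gene's groups overlapped, and the log2 differences were 0.74 ± 0.16 for Ndufa1 and 0.67 ± 0.13 for Ndufb11 (SE, n = 5 animals; limma adjusted p = 0.015 and 0.009). Without Rat3867 the adjusted p of Ndufa1 was 0.053, while the call of Ndufb11 held without any single animal. Ndufb11 overlaps Rbm10 on the other strand, and whether reads were counted by strand is not stated in the labels. Other members named below, among them Uqcrh, Atp5l, Uqcrc2 and Cox5a, also overlap a gene on the other strand. Atp5b overlaps small RNA genes on its own strand. Cox7b of complex IV, also on the X chromosome, differed by -0.14 and was not called. Among 357 tested genes of the X chromosome 59 (16.5%) were called higher in core and 26 lower. Over the 13055 genes with a known position 1324 (10.1%) were called higher and 1259 lower.

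The remaining mouse calls were in complexes III and V. Uqcrh, the hinge subunit of complex III, averaged 141 ± 17.3 CPM in core and 107 ± 14.9 CPM in rim (SD, n = 5 each), a log2 difference of 0.41 ± 0.11 (SE; limma adjusted p = 0.029). Atp5l, a membrane subunit of the synthase, had 77.5, 82.6, 72.6, 72.2 and 65.9 CPM in the cores against 41.5, 51.7, 55.4, 51.2 and 57.2 CPM in the rims, with no overlap and a difference of 0.53 ± 0.12 (limma adjusted p = 0.015). Atp5b, the catalytic beta subunit, had 876, 961, 924, 839 and 844 CPM in the cores against 1005, 1076, 1203, 1067 and 1355 CPM in the rims, again without overlap, and fell by 0.35 ± 0.11 on the log2 scale (limma adjusted p = 0.046). The call of Uqcrh was lost without any one of Rat3867, Rat3869, Rat3875 and Rat3876 (adjusted p 0.065 to 0.11), and that of Atp5l without Rat3867 (0.061). That of Atp5b was lost without any one of Rat3867, Rat3875, Rat3876 and Rat3877 (adjusted p 0.095 to 0.14).

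Of the 13 complex IV genes tested in tumor cells, 0 were called between core and rim, and 2 had an unadjusted p under 0.05. Cox4i1 averaged 286 ± 64.4 CPM in core and 284 ± 23 CPM in rim, and Cox5a 58.4 ± 12.7 CPM in core and 50.7 ± 6.31 CPM in rim (SD, n = 5 each). Ndufa4 had 121, 164, 122, 137 and 117 CPM in the cores against 159, 142, 157, 169 and 151 CPM in the rims, with overlapping groups and an adjusted p of 0.15 (limma), which became 0.026 without Rat3869.

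Of 12 mitochondrially encoded mouse genes tested, mt-Nd1, a membrane subunit of complex I, was called higher in core at a log2 difference of 0.40, and the median of the 12 was 0.15. Values of mt-Co2, mt-Co3, mt-Atp6, mt-Nd3 and mt-Nd4l are uncertain, since nuclear copies of mitochondrial DNA can share their reads: mt-Co2 averaged 11.5 CPM in core and 10.4 CPM in rim, beside 7812 CPM in core and 6874 CPM in rim for mt-Co1. Of the 4 complex II genes Sdhc was called lower, at -0.31, and 0 of 41 assembly factors were called.

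The difference between host and tumor cells was tested itself, in a test added after seeing the data: for each animal, the log2 core-rim difference of a rat gene minus that of the mouse gene with the matching name. Of 65 member pairs tested, 48 were called higher in rat and 0 lower (limma, adjusted p under 0.05 over 9914 pairs), where 16.5% of all pairs were called higher and 18.7% lower. The members' median was 0.52, beside -0.01 over all pairs. In 5 of 5 animals 52 member pairs were higher in rat, a count that was not made for all pairs. By complex, 22 of 32 pairs of complex I, 5 of 7 of complex III, 8 of 10 of complex IV and 13 of 16 of complex V were called. Rat Atp5f1b and mouse Atp5b, which code for the same subunit, differed by 1.15 ± 0.13 (SE, n = 5 animals; limma adjusted p = 0.00058). Ndufa9 differed by 1.03 ± 0.11 and Uqcrfs1 by 0.96 ± 0.11 (limma adjusted p = 0.00054 and 0.00061). Cox4i1 differed by 0.72 ± 0.11 and Cox5a by 0.57 ± 0.12, both called. Leaving out single animals gave 35 to 43 called pairs, and leaving out Rat3876 and Rat3877 together gave 26.

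Against the rim, the lung comparison in tumor cells put 11 of 75 mouse members higher and 2 lower (limma without a block, over 12970 genes), where 9.91% of all genes were called higher and 10.2% lower. The median log2 difference was 0.13, beside 0.01 over all genes. All lungs lay above all rims in 8 members (6.7% of all genes) and below them in 1 (6.75%). Without the library labelled lung of Rat3789 the counts were 19 higher and 2 lower, where 10.7% of all genes were called higher and 11.1% lower. The 4 other lungs lay above all rims in 19 members (9.73% of all genes) and below them in 1 (10.1%). Without Rat3869 4 were higher, without Rat3876 5, without Rat3867 6 and without Rat3875 7. Total-count scaling called 17 higher.

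Ndufa1 and Ndufb11 were the complex I genes with the highest called differences in lung. Ndufa1 had 25.2, 33.9, 25.8, 27.3 and 26.3 CPM in the lungs of Rat3789, Rat3869, Rat3875, Rat3876 and Rat3877, against the rim values given above, and every lung lay above every rim. Its difference was 0.76 ± 0.12 (log2, SE, n = 5 each; limma adjusted p = 0.0016), and 0.79 without Rat3789. Ndufb11 had 69.6, 86.5, 75.5, 83.5 and 69.8 CPM in the lungs, again above every rim, with a difference of 0.55 ± 0.09 (limma adjusted p = 0.0022), and 0.58 without Rat3789. Both this comparison and that of core use the same rim libraries. Of 350 tested genes of the X chromosome 19.1% were called higher in lung, beside 9.9% of all genes. Of 349 tested without Rat3789 18.3% were, beside 10.7% of all genes. In lung against core, 16.4% of X chromosome genes were called higher, beside 17.1% of all genes.

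Uqcrc2, a core subunit of complex III, had 83.1, 80.2, 72.5, 83.2 and 71.8 CPM in the lungs against 97.4, 111, 102, 95.7 and 104 CPM in the rims. The groups did not overlap, and it fell by 0.39 ± 0.07 on the log2 scale (SE; limma adjusted p = 0.0051; -0.41 without Rat3789). Cox5a had 63.6, 72.7, 61.2, 61.4 and 63.3 CPM in the lungs against 41.6, 53.1, 56.6, 46.9 and 55.4 CPM in the rims. All lungs were above all rims, a difference of 0.35 ± 0.10 (limma adjusted p = 0.027; 0.36 without Rat3789), and the call was lost without Rat3867, Rat3869 or Rat3876, at adjusted p of 0.057 to 0.089. It was also lost in the 4 animals that gave both lung and rim, at an adjusted p of 0.066 with the replicate block and 0.069 without it. In complex V, the c-ring gene Atp5g1 averaged 83.6 ± 14.8 CPM in lung and 61.1 ± 4.13 CPM in rim (SD, n = 5 each), a difference of 0.43 (limma adjusted p = 0.025) and of 0.54 without Rat3789. Its call was lost without any one of Rat3869, Rat3875, Rat3876 and Rat3877 (adjusted p 0.074 to 0.091). Atp5e, the epsilon subunit, averaged 104 ± 11.5 CPM in lung and 80.5 ± 8.1 CPM in rim, a difference of 0.37 (limma adjusted p = 0.018) and of 0.39 without Rat3789, and without Rat3869 its adjusted p was 0.073. In the 4 animals with both tissues its adjusted p was 0.052 with the replicate block, which ended the call, and 0.047 without it.

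Cox7a2 and Cox7a2l, related genes counted with complex IV, were called in opposite directions in lung. Their coding sequences are shown to give how alike the genes are, since reads of near-identical genes could be assigned to either. They were read from the GENCODE M21 transcripts Cox7a2-201 (gene at GRCm38 9:79755361-79759878, minus strand) and Cox7a2l-201 (gene at GRCm38 17:83501918-83517330, minus strand), 5′ to 3′. Cox7a2 is shown whole and Cox7a2l from base 85 to its last base, 336; capitals mark the part that aligns between them.
Cox7a2: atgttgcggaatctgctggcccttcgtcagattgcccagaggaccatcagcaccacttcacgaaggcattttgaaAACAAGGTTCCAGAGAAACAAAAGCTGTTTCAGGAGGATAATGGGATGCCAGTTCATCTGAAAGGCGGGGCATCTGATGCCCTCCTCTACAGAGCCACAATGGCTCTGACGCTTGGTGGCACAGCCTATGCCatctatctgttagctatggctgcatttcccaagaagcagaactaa
Cox7a2l: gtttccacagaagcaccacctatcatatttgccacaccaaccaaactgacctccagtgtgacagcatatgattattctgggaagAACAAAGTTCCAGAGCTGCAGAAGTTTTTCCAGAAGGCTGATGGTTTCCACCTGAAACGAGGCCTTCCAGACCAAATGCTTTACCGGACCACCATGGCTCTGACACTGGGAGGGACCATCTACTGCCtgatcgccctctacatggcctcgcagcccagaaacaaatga
The coding sequences are 252 bases (Cox7a2) and 336 bases (Cox7a2l) long, and the aligned part holds 85 identical bases in 133 columns (63.9%). It also holds 41 mismatches and 7 gaps, so the coding sequences are not near-identical. Whether any reads were shared was not tested.

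Cox7a2 had 118, 119.8, 104, 108 and 108 CPM in the lungs against 77.9, 95.2, 84.9, 95.8 and 87.6 CPM in the rims. Every lung lay above every rim, and the difference was 0.34 ± 0.08 (log2, SE; limma adjusted p = 0.012; 0.32 without Rat3789). Cox7a2l had 161, 154, 151, 191 and 135 CPM in the lungs against 199, 233, 184, 191 and 206 CPM in the rims, with overlapping groups. It fell by 0.36 ± 0.10 on the log2 scale (limma adjusted p = 0.024; -0.37 without Rat3789), and the call was lost without Rat3869, Rat3875 or Rat3877 (adjusted p 0.062 to 0.1). In the 4 animals with both tissues the call was lost with the replicate block (adjusted p 0.058) and without it (0.055). Against the core, with 240.5, 284, 254, 214 and 235 CPM, it fell by 0.63 ± 0.10, with all lungs below all cores (limma adjusted p = 0.00055; -0.64 without Rat3789). Its core-rim difference of 0.27 had a limma adjusted p of 0.051.

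Against the core, 17 of the 75 mouse members were called higher in lung, 1 of them the copy Cox5b-ps, and 3 lower (limma over 13058 genes), where 17.1% of all genes were called higher and 19.1% lower. The median was 0.16, beside -0.02 over all genes. All lungs lay above all cores in 5 members (11.6% of all genes) and below them in 3 (10.9%). Without the library labelled lung of Rat3789 the counts were 22 higher and 3 lower, where 17.4% of all genes were called higher and 20.5% lower. The 4 other lungs lay above all cores in 11 members (14.1% of all genes) and below them in 3 (16.1%). Without Rat3869 30 were higher, without Rat3867 or Rat3876 9, without Rat3877 8 and without Rat3875 7. Total-count scaling called 27 higher, and removal of a trend on gene length and GC called 29 higher. The same lungs had 17 of 18 hypoxia response genes called lower than in core, also without Rat3789.

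Uqcr11, a small subunit of complex III, had 67.7, 94.4, 78.5, 80.8 and 80.3 CPM in the lungs against 43.9, 71.5, 52.7, 58 and 54.2 CPM in the cores. The groups overlapped, and the difference was 0.53 ± 0.13 (log2, SE; limma adjusted p = 0.0061; 0.59 without Rat3789). Ndufa4 averaged 188 ± 23.2 CPM in lung and 132 ± 19.1 CPM in core (SD, n = 5 each), a difference of 0.51 ± 0.11 (limma adjusted p = 0.0037; 0.57 without Rat3789). Atp5k, a membrane subunit of the synthase, differed by 0.54 ± 0.18, Atp5g1 by 0.50 ± 0.16, Ndufa8 of complex I by 0.46 ± 0.13 and Ndufb3, also of complex I, by 0.45 ± 0.11. Without Rat3789 these differences were 0.62, 0.61, 0.47 and 0.50, all still called (limma). The calls of Atp5k and Atp5g1 were lost without any one of Rat3867, Rat3875, Rat3876 and Rat3877 (adjusted p 0.08 to 0.13 and 0.075 to 0.11), and that of Ndufa8 without Rat3875, Rat3876 or Rat3877 (0.054 to 0.064). Uqcrh fell by 0.46 ± 0.10 in lung, with no overlap, and Ndufa6, an accessory subunit of complex I, by 0.36 ± 0.12. Both were called with and without Rat3789, and Ndufa6 not without Rat3875 or Rat3877 (limma adjusted p 0.11 to 0.12). In the 4 animals with both tissues, without a block, the adjusted p was 0.072 for Ndufa6 and 0.05005 for Atp5k, and total-count scaling gave 0.08 for Ndufa6. Of 12 mitochondrially encoded genes 0 were called in lung against either tumor region (limma), with or without Rat3789. Without it, 2 against the rim and 0 against the core had an unadjusted p under 0.05.

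**Figure D4:**
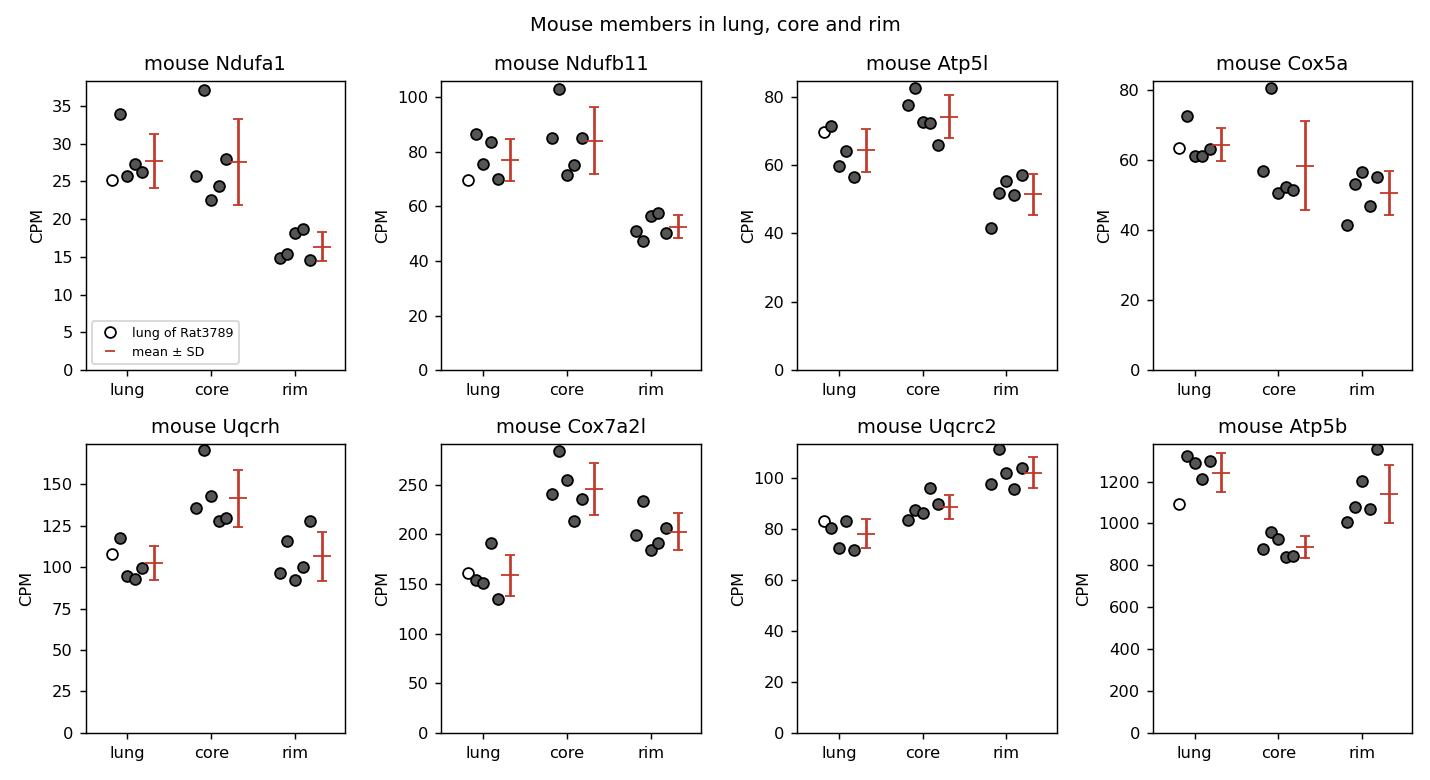
CPM of 8 mouse members in lung, core and rim, 1 circle per library, with the mean and SD beside them; the open circle is the library labelled lung of Rat3789. By their means Ndufa1 and Ndufb11 are lowest in rim, Cox7a2l and Uqcrh are highest in core, and Atp5b is lowest in core.

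In host cells of the lung libraries no member was called against the rim. Of 75 rat members tested, 0 were called higher and 0 lower (limma over 13841 genes), 4 had an unadjusted p under 0.05, and edgeR's quasi-likelihood test called 0 higher and 0 lower; among all genes 10.5% were called higher and 11.6% lower. All lungs lay above all rims in 1 member (6.1% of all genes) and below them in 0 (8.57%). Total-count scaling called 5 members higher, at a member median of 0.13, while it put the median of all rat genes at 0.15, against 0.02 with the deposited scaling.

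Without the library labelled lung of Rat3789, 1 rat member was called higher and 1 lower, where 15.4% of all genes were called higher and 14.3% lower. The 4 other lungs lay above all rims in 2 members (13.8% of all genes) and below them in 0 (12.5%). Cox4i2 had 10.1, 13.9, 8.88 and 10.6 CPM in the lungs of Rat3869, Rat3875, Rat3876 and Rat3877, against 3.02 to 7.35 CPM in the rims, and the library of Rat3789 had 2.90 CPM. The 4 lungs lay above all rims, and the difference was 1.16 ± 0.27 (log2, SE; limma adjusted p = 0.0087), while with all 5 libraries it was 0.79 ± 0.41 (0.2). Cox7a2l fell by 0.29 ± 0.10 on the log2 scale without Rat3789 (limma adjusted p = 0.044), and with all 5 libraries its difference was -0.22 (0.18). In the 4 animals with both tissues and the replicate block, the adjusted p was 0.0069 for Cox4i2 and 0.048 for Cox7a2l (limma). Ndufa4 averaged 90.6 ± 11.3 CPM in lung and 72.5 ± 9.74 CPM in rim (SD, n = 5 each), a log2 difference of 0.32 ± 0.11 (SE) at an adjusted p of 0.059 (limma). Without Rat3789 the difference was 0.33 at an adjusted p of 0.064, not called. Leaving out each animal in turn gave an adjusted p of 0.046 (without Rat3876, the one such fit that called it) to 0.199 (without Rat3869). Alveolar markers summed to 10835 to 18893 CPM in the 4 lungs, 247 CPM in the library of Rat3789 and 129 to 245 CPM in the rims, and fibroblast markers to 2357 to 26562 CPM over all lungs and 32749 to 61023 CPM in the rims. Their part in these values was not tested.

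Most members had higher CPM in the pellet of cultured 4T1 cells than in tumor cells of the rim. It is 1 library of a separate table, so both were scaled to total counts, 0.5 CPM was added, and nothing was tested. Of 81 mouse members at 1 CPM or more on either side, 49 were at least 2-fold higher in the pellet and 0 at least 2-fold lower, while among all 13613 such genes 10.8% were higher and 24.6% lower by that much. The members' median log2 ratio was 1.10 (1.04 without the copies), beside -0.24 over all genes. In 76 of the 81 the pellet lay above all 15 lung, core and rim libraries, a count that was not made for all genes. Ndufa1 had 65.1 CPM in the pellet (95% Poisson interval 62.2 to 68.1, counting error only), against 16.3 ± 1.94 CPM in rim (SD, n = 5). Cox5a had 169.8 CPM in the pellet (165 to 175), against 50.7 ± 6.31 CPM in rim. Ndufb2, an accessory subunit of complex I, was lower at 3.68 CPM (3.02 to 4.44), against 7.15 ± 1.4 CPM in rim, and Cox7a2l was near the rim at 191 CPM (186 to 196), against 203 ± 21.3 CPM in rim. The highest log2 ratios belonged to copies, led by Cox5b-ps at 3.48, whose reads may be shared with the parent gene.

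Isoforms known from particular tissues were nearly silent in 4T1 cells. The pellet held 4 reads of Cox4i2, 3 of Ndufa4l2, 1 of Cox6b2 and 0 of Cox8b, none of which is in the mouse tumor table used here. Mouse Cox6a2 stood at up to 0.646 CPM and Cox7a1 at up to 1.12 CPM in the tumor and lung libraries, and neither passed the filter.

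Most members also had higher CPM in mammary gland of rats without a transplant than in host cells of the rim. Of 76 rat members 53 were at least 2-fold higher in gland and 4 at least 2-fold lower, while among all 13970 genes 10.9% were higher and 43.1% lower by that much. The median log2 ratio was 1.22, beside -0.79 over all genes. In 57 members both glands lay above all 15 other libraries, a count that was not made for all genes. Cox6a2, the muscle form of subunit 6a, had 611 and 374 CPM in the glands, against 3.5 ± 2.13 CPM in rim (SD, n = 5). Cox8b, the muscle form of subunit 8, had 258 and 153 CPM in the glands, against 1 ± 0.825 CPM in rim. Cox6a1 went the other way with 46 and 116 CPM in the glands, against 189 ± 20.1 CPM in rim. Ndufa4l2, at 0.873 and 3.52 CPM in the glands against 12 ± 2.9 CPM in rim, Cox4i2 and Atp5if1, the inhibitor of the synthase, were the others lower by 2-fold or more. With 2 glands these ratios were not tested. Muscle and adipocyte markers were not summed in the glands, and their part in these ratios was not tested.

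**Figure D5:**
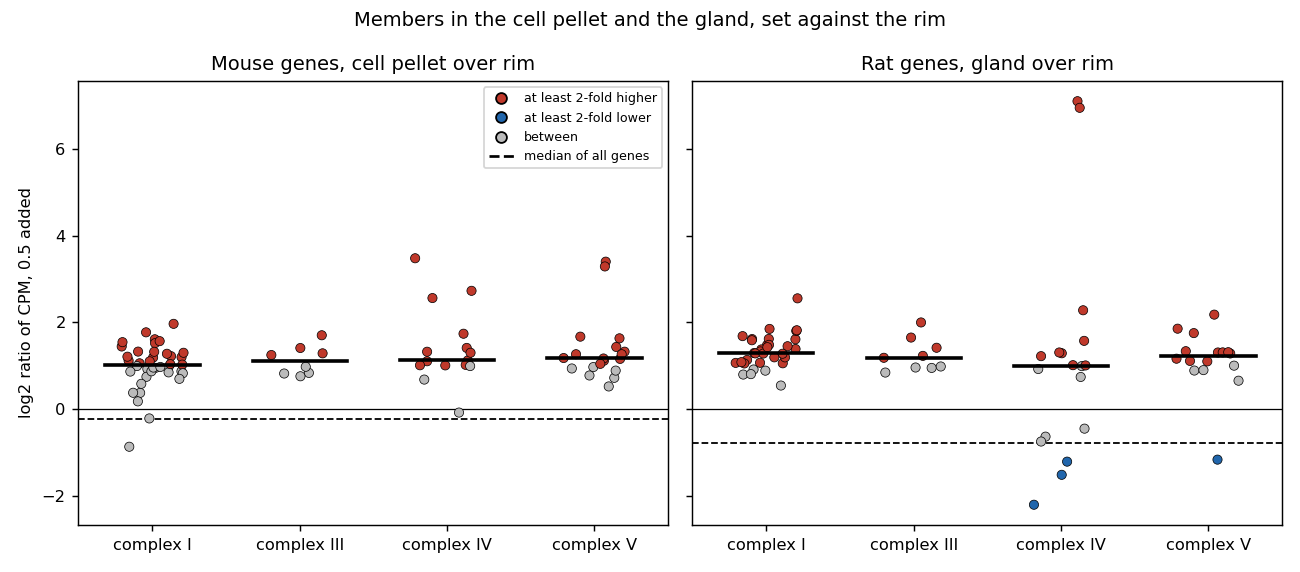
Log2 ratio of CPM of each member in the 4T1 cell pellet over the rim (mouse genes, left) and in the gland over the rim (rat genes, right), by complex, with 0.5 CPM added; bars are medians and the dashed line is the median of all genes. Medians per complex lie between 0.99 and 1.29 in both panels, and Cox6a2 and Cox8b reach 6.95 and 7.10 in the gland.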

How the data were processed

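PolyA RNA libraries of lung, tumor core and tumor rim (5 each), mammary gland (2) and a 4T1 pellet (1) were used. The submitters' processing notes name the tools limma, featureCounts, STAR and Trim Galore and the builds GRCm38 (mouse) and Rnor_6.0 (rat), without tool versions or a strand setting. For lung, core and rim the deposited signal is CPM: each value is a read number plus 0.5 times a constant per library, and 100% of values gave whole reads within 0.01. For pellet and gland the authors deposited raw counts. The design named limma for normalized values and edgeR's quasi-likelihood test for raw counts. The deposited values were normalized, so limma 3.58.1 (trend, R 4.3.3) was run on their log2. The tests were two-sided, over all genes of at least 1 CPM in 5 compared libraries, with Benjamini-Hochberg adjustment. No pseudocount was added beyond the 0.5 read in the values, so folds of genes with few reads are understated. edgeR 4.0.16 on the recovered reads and DESeq2 1.42.0 size factors were alternatives, as were scaling, filter, pseudocount, removal of stray reads, length and GC (mouse only, for lack of rat lengths) and leaving out animals. The limma fit was tested on simulated data.

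The animal was a block in core against rim because the labels tie core and rim to the same animal. Deviations of the paired libraries correlated at -0.182 to 0.238 over mouse genes and 0.028 to 0.339 over rat genes. The members, lists and tests were chosen with earlier results of these data known. The genes named are, for each complex and comparison, up to 2 called members with the largest rise and 2 with the largest fall of at least 2 mean log2 CPM, the tissue isoforms with their common partners, Cox5a, and up to 2 called genes per direction of other lists; Ndufb4, Ndufs4, Uqcrb, Atp5if1, Ndufb2 and Sftpc were chosen after their values were seen. Pellet and gland carry 95% Poisson intervals for counting error only. Separate cultures or litters are not named, so p-values measure the spread between these animals. Depth is given with the results.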

Additional observations from a re-analysis of the deposited data

Results flagged for a closer look

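A library was picked out where it lay farther from the other 4 of its group than Dixon's 95% limit for 5 libraries, which chance alone passes in about 1 in 20 groups. Of 141 groups tested, where 1 in 20 is 7.05, 23 values passed, and 22 of them came from Rat3869. Many groups share that animal's libraries and are not independent. The groups were those of genes named by the rule given above and of the read shares, not of all members. Among members outside them, Atp5j had 143 CPM in the rim of Rat3876, against 82.4 to 88.6 CPM in the other rims. For the mouse genes tested, all such libraries came from Rat3869. In its core, Cox5a had 80.7 CPM, Atp5e 118 CPM, Ndufa8 75.3 CPM, Cox4i1 399 CPM, Cox8a 212 CPM, Cox6b1 97.0 CPM, Cox6a1 189 CPM, Atp5k 69.5 CPM and Uqcr10 67.2 CPM. In its lung, Cox5a had 72.7 CPM, Atp5e 124 CPM, Ndufa1 33.9 CPM, Ndufa6 56.9 CPM, Ndufa8 78.8 CPM and Cox7b 112 CPM. Each of these was the highest value of its group. The members together took 0.899% of mouse reads in that core, against 0.682 to 0.734% in the other cores.

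For rat genes, Rat3869 stood apart as well, with 138.8 CPM of Cox5b in rim, 8.67 CPM of Cox6a2 in lung, 222.6 CPM of Cox6b1 in core and 21.5 CPM of the second Cox6b1 gene in rim. Its members took 1.26% of rat reads in core and 0.915% in lung. Cytosolic ribosomal protein genes were also highest in the core of Rat3869, at 8.04% of mouse reads and 7.18% of rat reads, and their part in these values was not tested. Cox8b had 8.50 CPM in the core of Rat3876, the core with the most skeletal muscle marker RNA.

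For the genes listed next, the core-rim difference was higher in host than in tumor cells by the test over animals (limma, log2 scale, 5 animals). Several of them had been named for a large rise in host cells. It was higher by 0.71 for Cox6a1, 1.15 for Atp5f1b and Atp5b, 0.84 for Ndufb10, 0.85 for Cox5b, 0.72 for Cox4i1, 0.96 for Uqcrfs1, 0.57 for Cox5a, 0.65 for Cox8a, 0.64 for Atp5f1e and Atp5e, and 1.03 for Ndufa9. Adjusted p lay between 0.00054 (Ndufa9) and 0.0094 (Cox5a). Of the 65 pairs tested 17 were not called. Among these were Ndufa4 at -0.05, Cox7a2l at 0.08, Uqcrq at 0.44, Uqcrh at 0.03 and Ndufb11 at -0.23.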

How the results depend on the processing

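The count of rat members called higher in core was 44 to 59 under 10 other settings and 42 to 59 with 1 animal left out; the count called lower was 0 to 2, with 1 without the replicate block and 0 without Rat3876 and Rat3877 together. For mouse members in core, 1 to 4 were higher and 0 to 7 lower with 1 animal left out; the count lower was 2 under total-count scaling or no filter, 4 with the length and GC trend removed, and 0 with stray reads subtracted or without Rat3876 and Rat3877 together. In lung against rim, leaving out 1 animal gave 4 to 19 mouse members higher and 1 to 2 lower; total-count scaling gave 17 higher, the length and GC trend removed 4 lower, and the 4 shared animals 1 lower with or without the replicate block (8 and 11 higher). In lung against core, leaving out 1 animal gave 7 to 30 higher; total-count scaling gave 27, the length and GC trend removed 29, and the 4 shared animals 23 with the replicate block and 13 without it. For rat members in lung, leaving out 1 animal gave 0 to 1 higher and 0 to 1 lower; total-count scaling gave 5 higher and a median of 0.13, stray reads subtracted 1 higher, and the 4 shared animals 1 higher and 1 lower with or without the replicate block. The host-tumor difference gave 26 pairs without Rat3876 and Rat3877 together and 35 to 43 with 1 animal left out. The cause of these shifts was not tested.

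Over all genes, total-count scaling moved the split of higher against lower calls, to 1717 and 1108 in mouse lung against rim (1285 and 1318 before), 3053 and 1875 in mouse lung against core (2237 and 2499 before) and 2435 and 1255 in rat lung against rim. Of the values recomputed for single genes, 1097 kept their side of the threshold, 79 lost the call, 24 gained it and 0 changed direction while called. Added after seeing the data were the subtraction of stray reads, the fit of 4 shared animals without a block and the host-tumor test. Rat depth, the lower of the species, limits Cox6b2, Cox4i2, Cox6a2 and Cox8b most, at a few CPM.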
